A study of Rattus norvegicus with 4 samples.

Results

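The circadian clock genes examined are 10 transcripts, Arntl, Clock, Per1, Per2, Per3, Cry1, Cry2, Nr1d1, Nr1d2 and Dbp, taken by symbol from a table of 16290 rat genes. All 10 were present once in the table, and all 10 passed the filter on low values (10 or more in 2 or more libraries), which left 12838 genes for the test. RNA came from rat cardiomyocytes, heart muscle cells of postnatal day 3 and kept in a serum-containing medium. Both groups received an adenovirus, a viral carrier for genes. In the Pdk3 group it encoded Pdk3, a kinase that switches off the pyruvate dehydrogenase complex (libraries Pdk3 1 and Pdk3 2), and in the control group it carried a mock construct (libraries Mock 1 and Mock 2). The sources used here do not give the promoter in the vector, the dose, the interval to collection or the hour of collection. The labels do not say that the 2 libraries of a group came from separate cultures, so the p-values rest on a spread between libraries that may be only technical.

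In mammals the clock is a feedback loop of transcription. BMAL1, the product of Arntl, pairs with CLOCK and switches on genes that carry E-box motifs, among them the Per, Cry, Nr1d and Dbp genes. PER and CRY proteins then inhibit the BMAL1 and CLOCK pair. In a second loop, REV-ERB proteins, encoded by Nr1d1 and Nr1d2, repress Arntl through ROR elements in its promoter, where ROR receptors activate it. Heart muscle cells carry such a clock of their own, and the transcripts of the loop rise and fall over the day. A single collection, as here, gives 1 level of each transcript and no phase.

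The values are normalised read counts that the authors rounded to whole numbers. They summed to 4476649 and 4470251 in the Pdk3 libraries and to 4448199 and 4454567 in the mock libraries, and the highest value of any gene was 8169. Since they are already normalised, the sequencing depth of each library is not known from them. Pdk3 itself had 1218 and 1177 in the Pdk3 libraries, against 396 and 411 in the mock libraries. With the values treated as reads, the 2 libraries of a group lay closer to each other than counting noise alone would place them. The mean squared difference was 0.637 of the counting variance in the Pdk3 pair and 0.575 in the mock pair. Normalised values are not raw reads, so the true counting noise is not known. Beside limma's adjusted p stands, for each member and each pathway gene called, an adjusted p floored at counting noise (written floored), which takes the larger of limma's p and an exact binomial p of the summed values. Markers of heart muscle were abundant in every library (6 of 6 measured, summed at 16075 and 15866 with Pdk3 and at 15842 and 15686 with mock), and of these Myh6 and Actc1 rose and Ryr2 fell. Markers of other cells were present as well. The 7 macrophage markers summed to 898 and 876 with Pdk3 and 1141 and 1070 with mock, and 4 of the 7 fell. The 5 mesothelial markers summed to 178 and 169 with Pdk3 and 248 and 244 with mock, and of the 4 that could be tested 2 fell. Fibroblast markers (6 measured, sums of 3743 to 3875 with Pdk3 and 3881 to 3940 with mock) had 1 that fell, and endothelial markers (5 measured, sums of 891 to 916 with Pdk3 and 950 to 995 with mock) had 2. Of 6 smooth muscle markers, summed at 4314 to 4353 with Pdk3 and 3878 to 3914 with mock, 3 rose. The 3 measured erythroid markers summed to 25 and 23 with Pdk3 and 29 and 41 with mock, and the 1 that could be tested did not pass. Of all genes tested, 11.7% rose and 11.3% fell at the same threshold (limma, adjusted p under 0.05). No measured marker was at 0 in all libraries. In RNA of a whole culture, fewer cells of a type and less RNA per cell cannot be told apart, and the part of these shifts in the clock values was not tested.

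The clock transcripts changed little when Pdk3 was expressed. Of the 10, Arntl and Per3 fell, 0 rose and 8 did not pass the threshold (limma, adjusted p under 0.05). Across all genes tested 11.7% rose and 11.3% fell, 22.9% in either direction, so the members' count is near that background. At an unadjusted p under 0.05 limma placed 5 of the 10 members, 1 above and 4 below mock, beside 4671 of the 12838 genes tested, 2285 above and 2386 below. With the floor at counting noise, 1 of the 10 passed, Arntl, against 16.0% of all genes tested. The median size of the log2 fold change, without its sign, was 0.099 over the 10 members and 0.12 over all genes tested. The groups did not overlap for 7 members, 2 above and 5 below mock, beside 61.0% of all genes tested.

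**Figure D1:**
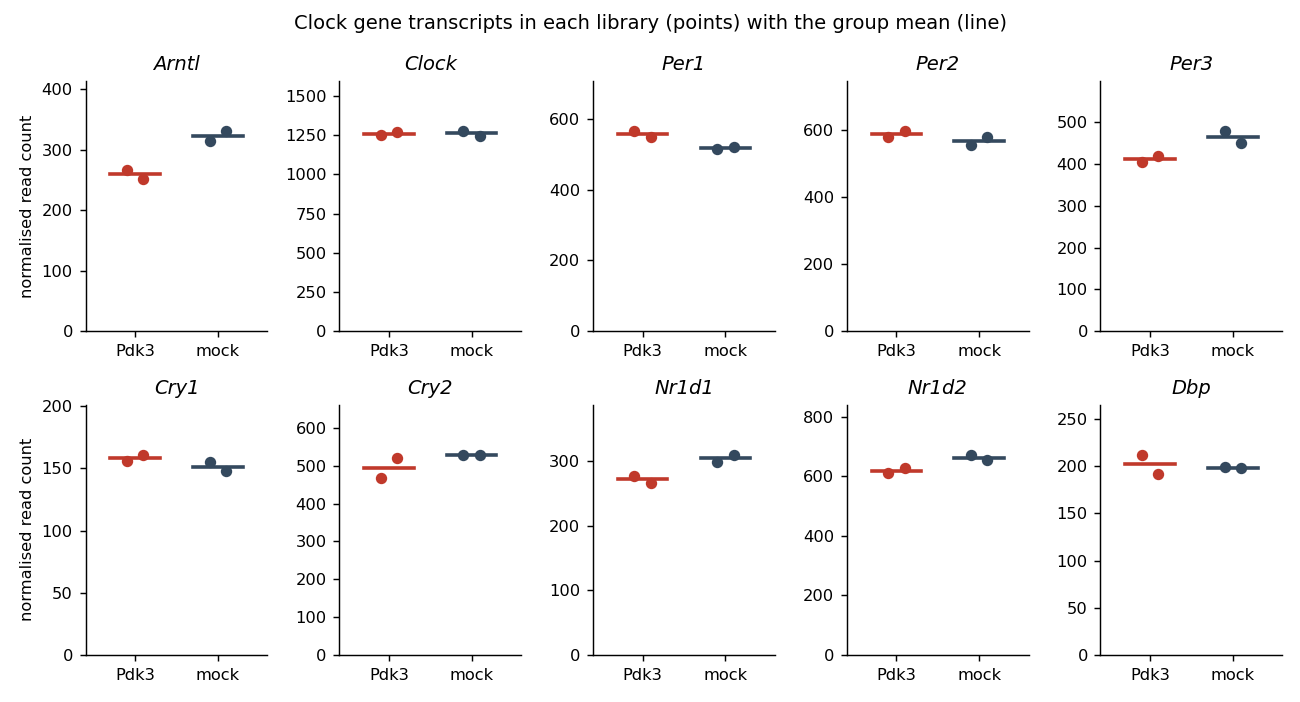
Normalised read count (vertical axis, from 0) of the 10 clock genes in the 2 Pdk3 libraries (red, left) and the 2 mock libraries (dark, right) of each panel, with points for libraries and lines for group means. The Arntl points with Pdk3, 267 and 252, lie below the mock points, 315 and 331, while the Clock points of both groups lie together between 1247 and 1277.

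Arntl (ENSRNOG00000014448, chromosome 1, 178039063 to 178137465, plus strand, rn6), which encodes BMAL1, had normalised read counts of 267 and 252 in the Pdk3 libraries, against 315 and 331 in the mock libraries. Both Pdk3 libraries lay below both mock libraries, so leaving out 1 library could not turn the sign. The mean was 259.5 ± 10.6 with Pdk3 and 323.0 ± 11.3 with mock (SD, n = 2 each). Arntl fell by 19.6%, a log2 fold change of -0.31 ± 0.05 (standard error; 95% interval -0.44 to -0.19; limma adjusted p = 0.00594, and with the floor 0.00638). The counting interval of the fold (95%, exact binomial) ran from 0.711 to 0.899. Of all genes tested, 17.8% had a larger change in either direction. With 1 library left out the sign held, but limma then called no gene in the table. Arntl had values of -0.36 and -0.27 without Pdk3 1 and Pdk3 2 and of -0.35 and -0.28 without Mock 1 and Mock 2, with limma adjusted p of 0.149, 0.158, 0.181 and 0.183. The call also ended without a filter on low values (adjusted p = 0.0702) and without an intensity trend in limma (0.0660).

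The promoter of Arntl is shown because Arntl is the member whose call held with the floor at counting noise and because the repressors of its second loop act there. RefSeq lists the gene under its other symbol, Bmal1, with 1 start. The stretch runs from 250 bases before to 50 bases into the transcript, and positions count the first transcribed base as 1 (GRCr8, chr1:176766078-176766377, plus strand). Capitals mark matches to the letters ANTAGGTNA, a short form of the ROR element.
Arntl promoter: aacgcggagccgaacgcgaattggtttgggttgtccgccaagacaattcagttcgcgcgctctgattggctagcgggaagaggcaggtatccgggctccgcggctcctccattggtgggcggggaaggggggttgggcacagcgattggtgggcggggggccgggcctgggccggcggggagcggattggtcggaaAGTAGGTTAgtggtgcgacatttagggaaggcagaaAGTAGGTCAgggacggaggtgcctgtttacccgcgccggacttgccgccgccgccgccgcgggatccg
There were 2 matches, AGTAGGTTA at positions -54 to -46 and AGTAGGTCA at -18 to -10, both on the strand of the gene. Of 33469 RefSeq promoter windows of the same length, 2.16% held this motif on either strand, and 0 of the other 10 windows of clock members did.

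Clock (ENSRNOG00000002175, chromosome 14), the partner of BMAL1, had 1249 and 1269 in the Pdk3 libraries, against 1277 and 1247 in the mock libraries. The groups overlapped. The log2 fold change was -0.0034 with a 95% interval of -0.058 to 0.052 (limma adjusted p = 0.935, floored 0.974), an interval that does not reach the value of Arntl. Within each library the ratio of Clock to Arntl counts was 4.66 and 5.02 with Pdk3 and 4.04 and 3.76 with mock. Each count was raised by 1 first, here and in every ratio below. Apart from this added 1, such a ratio does not depend on how libraries are scaled to each other. It was higher in both Pdk3 libraries than in both mock libraries, by 0.31 on the log2 scale. With 2 libraries a group no test of a single ratio was run. Arntl, which was called lower, is the divisor here and in each later ratio to Arntl. Higher ratios therefore partly restate its fall and add no separate support to its call.

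Npas2 and Arntl2 encode close relatives of CLOCK and BMAL1. Npas2 had 164 and 203 with Pdk3, against 152 and 148 with mock, a log2 fold change of 0.28 ± 0.10 that did not pass (limma adjusted p = 0.0923, floored 0.122). It passed with TMM scaling (0.0437) and when the filter was raised to 50 (0.0355). Both Pdk3 libraries lay above both mock libraries, by very different margins, and the log2 fold change was 0.43 without Pdk3 1 and 0.13 without Pdk3 2. The ratio of Npas2 to Arntl counts was 0.616 and 0.806 with Pdk3 and 0.484 and 0.449 with mock. Arntl2 had 15 and 10 with Pdk3 and 4 and 11 with mock, counts too low to show a difference (limma adjusted p = 0.272).

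The period genes encode the PER repressors of the first loop. Per3 (ENSRNOG00000018413, chromosome 5, 168086998 to 168123395, minus strand, rn6) had 406 and 420 in the Pdk3 libraries, against 479 and 450 in the mock libraries. Its groups did not overlap, with a mean of 413.0 ± 9.9 with Pdk3 and 464.5 ± 20.5 with mock (SD, n = 2 each). Per3 fell by 11.0%, a log2 fold change of -0.17 ± 0.04 (95% interval -0.27 to -0.065, adjusted p by limma = 0.0323), and the call ended with the floor at counting noise (adjusted p = 0.0605). It ended as well with the replicate number as a block (0.0515), without a filter (0.134), without an intensity trend (0.146) and without any 1 library. The limma adjusted p was 0.273 and 0.209 without Pdk3 1 and Pdk3 2, and 0.245 and 0.172 without Mock 1 and Mock 2.

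Per1 and Per2 did not pass. Per1 had 565 and 547 with Pdk3, against 515 and 520 with mock, a log2 fold change of 0.10 ± 0.03 (95% interval 0.023 to 0.18, adjusted p by limma = 0.0698, floored 0.337). Both Pdk3 libraries of Per1 lay above both mock libraries. With TMM scaling Per1 passed (adjusted p = 0.0419), and with libraries scaled on ribosomal protein genes its log2 fold change was 0.016. Per2 had 579 and 597 with Pdk3, against 554 and 579 with mock, with 1 value shared between the groups and a log2 fold change of 0.054 (95% interval -0.032 to 0.14, limma adjusted p = 0.337, floored 0.707). That value turned to -0.033 with ribosomal protein gene scaling, and it was 0.032 without Pdk3 2, 0.022 without Mock 1 and 0.086 without Mock 2. The ratio of Per1 to Per3 counts, formed in the same way, was 1.39 and 1.30 with Pdk3 and 1.08 and 1.16 with mock. The ratio of Per2 to Per3 was 1.43 and 1.42 with Pdk3 and 1.16 and 1.29 with mock. Both ratios were higher in each Pdk3 library than in each mock library. Their divisor, Per3, was itself called lower, so they partly restate that call.

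The cryptochrome genes encode the CRY partners of PER. Cry1 had 156 and 161 with Pdk3, against 155 and 148 with mock, and Cry2 had 468 and 521 with Pdk3, against 529 and 529 with mock. The Cry1 groups were 1 count apart, and the Cry2 value of Pdk3 1 lay well below the other 3. Log2 fold changes were 0.065 (95% interval -0.10 to 0.23) for Cry1 and -0.10 (-0.22 to 0.021) for Cry2, with limma adjusted p of 0.562 and 0.211 (floored 0.830 and 0.295). Cry2 had -0.022 without Pdk3 1 and -0.18 without Pdk3 2. Cry1 had 0.042 without Pdk3 2, 0.098 without Mock 1 and 0.032 without Mock 2. With ribosomal protein gene scaling Cry1 turned to -0.021, and Cry2 passed as lower (adjusted p = 0.00795).

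Nr1d1 and Nr1d2 encode the REV-ERB receptors, which repress Arntl. Nr1d1 (ENSRNOG00000009329, chromosome 10, 86683875 to 86690815, minus strand, rn6) had 277 and 267 in the Pdk3 libraries, against 299 and 310 in the mock libraries. Nr1d2 had 611 and 626 with Pdk3, against 672 and 653 with mock. In both genes each Pdk3 library lay below each mock library, and neither gene passed the threshold. Nr1d1 had a log2 fold change of -0.16 ± 0.05 (95% interval -0.28 to -0.045, limma adjusted p = 0.0548, floored 0.171). Nr1d2 had -0.10 ± 0.03 (95% interval -0.17 to -0.023, limma adjusted p = 0.0652, floored 0.216). When the filter was raised to 50, both passed (0.0356 and 0.0433), and with ribosomal protein gene scaling both passed as lower (0.00295 and 0.000949). The ratio of Nr1d1 to Arntl counts was 1.04 and 1.06 with Pdk3 and 0.949 and 0.937 with mock, since Arntl had the larger difference.

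The Nr1d1 gene shares 1059 bases with Thra, a thyroid hormone receptor gene on the other strand. The library kit keeps strand, per the labels, but the sources used here do not give the strand setting of the counting, so reads of the shared stretch cannot be assigned with certainty. Thra had 594 and 609 with Pdk3, against 626 and 656 with mock (limma adjusted p = 0.108). None of the other 9 members overlaps another gene of the table.

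Dbp encodes an activator that binds D-box motifs and is a classic output of BMAL1 and CLOCK. Dbp had 212 and 192 with Pdk3, against 199 and 198 with mock. The mock values lay between the Pdk3 values. Its log2 fold change was 0.023 with a 95% interval of -0.14 to 0.18 (limma adjusted p = 0.840, floored 0.973). The value was 0.094 without Pdk3 2, and the sign turned without Pdk3 1 (-0.048) and with ribosomal protein gene scaling (-0.063). The ratio of Dbp to Arntl counts was 0.795 and 0.763 with Pdk3 and 0.633 and 0.599 with mock.

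**Figure D2:**
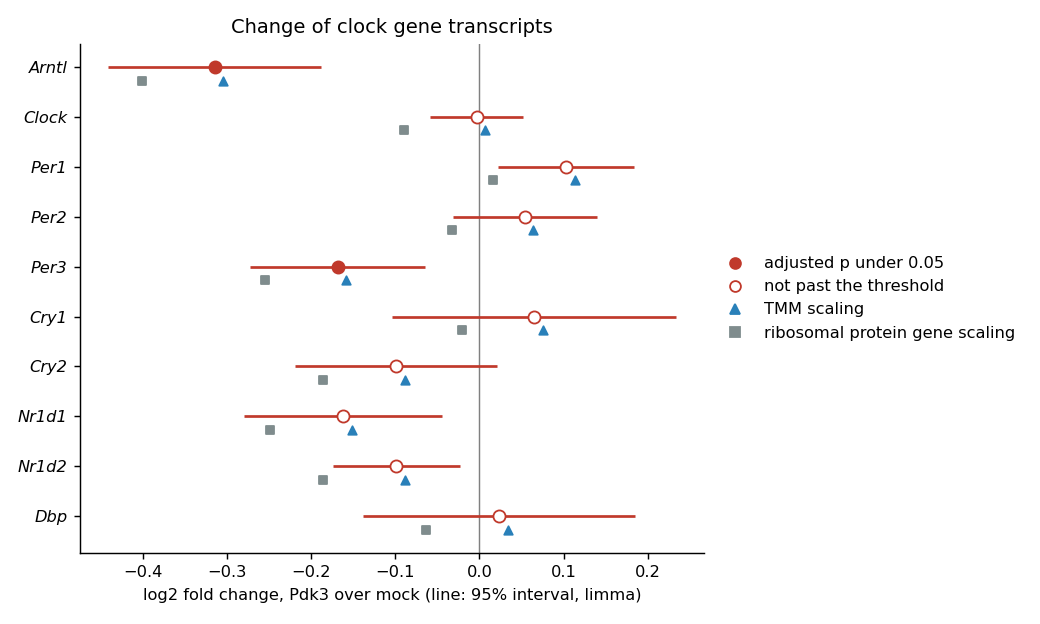
Log2 fold change of each clock gene, Pdk3 over mock (horizontal axis), as circles with limma's 95% interval, filled for an adjusted p under 0.05. Arntl at -0.31 and Per3 at -0.17 are filled, and grey squares show that scaling to ribosomal protein genes moves every member down, Arntl to -0.40, while blue triangles for TMM stay close to the circles.

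How many of these small differences pass varied with the scaling between libraries. TMM scaling called Arntl and Per3 lower and Per1 higher. The 61 ribosomal protein genes used for the other scaling had a median log2 fold change of 0.077, Pdk3 over mock, before any rescaling. Scaling on their median level therefore lowered the values of all genes with Pdk3 relative to mock. It moved the median of all genes tested from -0.0072 to -0.093 on the log2 scale and called 6 members lower and 0 higher. Those 6 were Arntl, Clock, Per3, Cry2, Nr1d1 and Nr1d2. Over all genes that scaling called 941 higher and 3613 lower, in place of 1496 and 1449. Arntl and Per3 were negative under each of the 13 alternatives, from -0.40 to -0.27 and from -0.26 to -0.12. Of these only TMM and ribosomal protein gene scaling could have turned the sign.

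**Figure D3:**
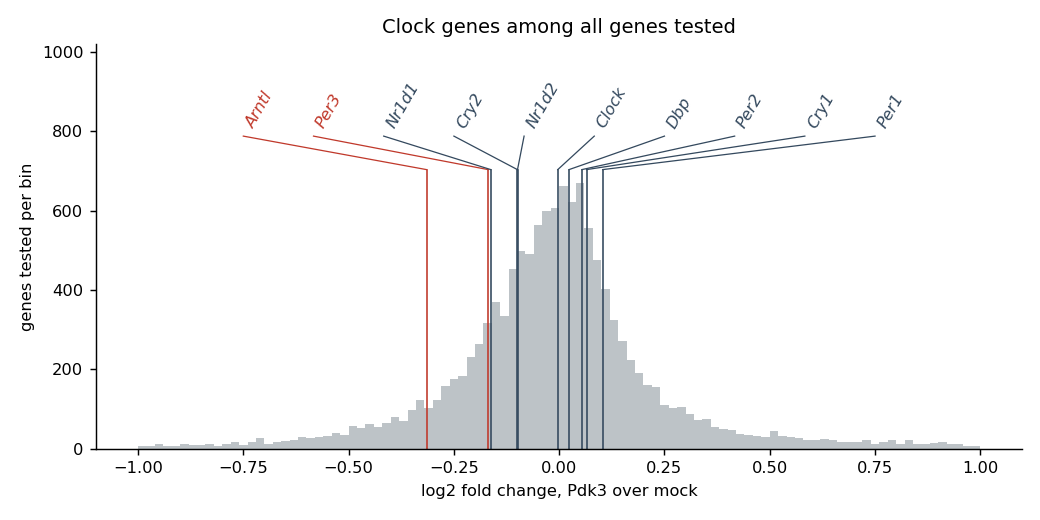
Distribution of log2 fold changes, Pdk3 over mock, of 12608 genes tested between -1 and 1 (bars, genes per bin), with 63 genes below and 167 above this range not drawn, and the 10 clock genes as vertical lines, red for those past the threshold. All 10 lie in the body of the distribution between -0.31 and 0.10, with Arntl farthest from 0.

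Sequences around the starts of clock genes are printed for Per2 and Nr1d1, to set beside Arntl. Both carry an E-box or a variant E-box near a start, and neither transcript passed the threshold here. Cry2 meets the same description and is not printed. RefSeq (GRCr8) gave windows for 9 of the 10 members, 11 windows in all. Cry1 is not among them. The letters searched on both strands were CACGTG (E-box), CACGTT (a variant E-box), TTATGTAA (D-box), ANTAGGTNA (ROR element) and TGACGTCA (CRE, the site of cAMP-responsive factors). Capitals again mark the matches. The Per2 window is chr9:99496944-99497243, minus strand, and the Nr1d1 window, at the second of 2 listed starts, is chr10:84229405-84229704, minus strand.
Per2 promoter: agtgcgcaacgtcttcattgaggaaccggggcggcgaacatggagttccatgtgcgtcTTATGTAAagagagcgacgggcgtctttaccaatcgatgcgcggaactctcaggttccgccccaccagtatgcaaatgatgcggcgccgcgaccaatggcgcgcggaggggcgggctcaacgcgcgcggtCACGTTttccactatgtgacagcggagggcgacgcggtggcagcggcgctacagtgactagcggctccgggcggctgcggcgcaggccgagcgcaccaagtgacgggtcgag
Nr1d1 promoter, second start: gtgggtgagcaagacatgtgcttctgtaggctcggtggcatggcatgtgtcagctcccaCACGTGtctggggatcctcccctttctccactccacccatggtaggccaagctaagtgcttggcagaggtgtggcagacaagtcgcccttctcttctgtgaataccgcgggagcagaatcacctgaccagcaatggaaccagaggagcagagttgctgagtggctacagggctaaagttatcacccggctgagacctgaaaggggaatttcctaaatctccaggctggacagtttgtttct
Per2 had a D-box at positions -192 to -185 and a variant E-box at -62 to -57. Nr1d1 had an E-box at -191 to -186 of its second start and a variant E-box at -174 to -169 of its first, and Cry2 had a variant E-box at -212 to -207. Among all 33469 windows the E-box was in 6.42%, the variant E-box in 4.83%, the D-box in 0.893% and the CRE in 1.83%. The windows of Clock, Per1, Per3, Nr1d2 and Dbp held none of the 5 motifs. Such a window covers little of a gene's control region, and a match is a run of letters.

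**Figure D4:**
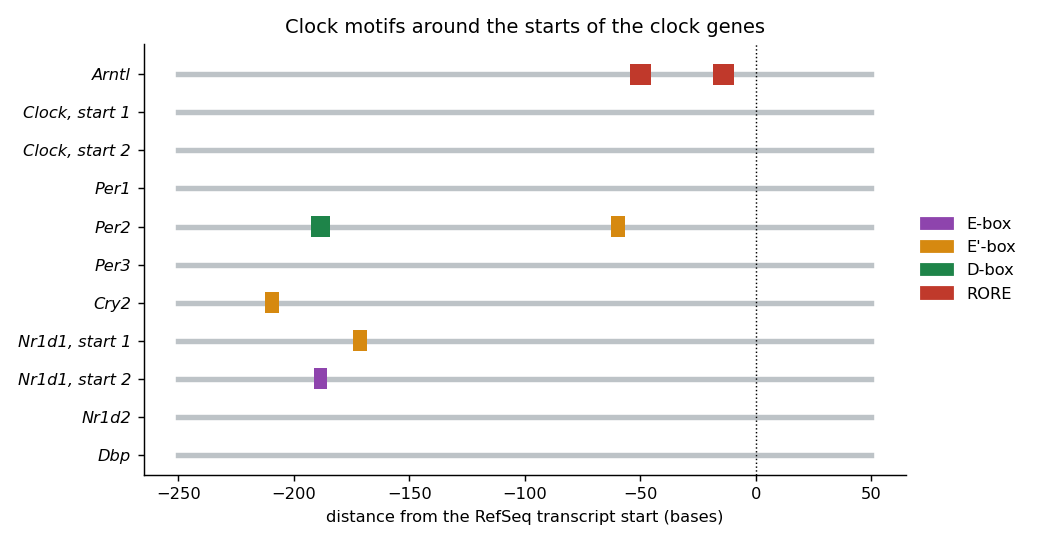
Positions of motif matches (coloured boxes) in the 11 promoter windows of 9 clock genes (rows), by distance in bases from the RefSeq transcript start, which the dotted line marks. Arntl is the row with ROR elements, 2 of them within 54 bases of the start, and Per2, Cry2 and Nr1d1 are the rows with E-box or D-box matches.

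Other genes of the pathway were taken from 9 lists of 72 genes, of which 67 were in the table and 65 passed the minimum value. Of the 65, 9 rose and 12 fell, with a median log2 fold change of 0.0053 beside -0.0072 over all genes tested, of which 11.7% rose and 11.3% fell. With the floor at counting noise 5 of the 65 rose and 9 fell, beside 16.0% of all genes in either direction. The lists differed in which of their genes passed, and each count below is to be set beside these shares of all genes.

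Among 6 tested genes for D-box factors and further clock repressors, 1 fell and 0 rose. Bhlhe40, which encodes DEC1, a repressor at E-boxes, had 493 and 483 in the Pdk3 libraries, against 605 and 574 in the mock libraries. Both Pdk3 values lay clearly below both mock values, and Bhlhe40 fell by 0.27 on the log2 scale (limma adjusted p = 0.00259, floored 0.00261). Its relative Bhlhe41 (DEC2) had 97 and 108 with Pdk3 and 131 and 119 with mock, a log2 fold change of -0.28 that did not pass (limma adjusted p = 0.0803). Ciart, the gene of the repressor CHRONO, had 78 and 68 with Pdk3 and 47 and 64 with mock (0.40, limma adjusted p = 0.134). The D-box factor genes Tef and Nfil3 had log2 fold changes of 0.053 and 0.10, and Cipc, which encodes a CLOCK-interacting repressor, had 0.0053, none of them past the threshold. Hlf, at 12 and 4 with Pdk3 and 6 and 1 with mock, was under the minimum. Rora, which encodes a ROR receptor, had 53 and 49 with Pdk3 and 57 and 67 with mock (limma adjusted p = 0.212).

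Most genes for enzymes that modify clock proteins did not pass the threshold. Of 13 kinase and phosphatase genes 2 rose and 0 fell, and the median log2 fold change was 0.026. Prkaa1, a catalytic subunit of AMP-activated kinase, which marks CRY1 for breakdown, had 689 and 668 with Pdk3, against 600 and 631 with mock (log2 fold change 0.14, limma adjusted p = 0.0300, floored 0.0943). Ppp1cb, a catalytic subunit of protein phosphatase 1, had 0.12 (limma adjusted p = 0.00766, floored 0.0430). Both calls ended with ribosomal protein gene scaling (adjusted p = 0.324 and 0.363). The PER kinase genes Csnk1d and Csnk1e had log2 fold changes of -0.064 and -0.0015 and did not pass. Of 9 ubiquitin enzyme genes 2 fell and 0 rose. Usp2, a deubiquitinating enzyme, had 494 and 500 with Pdk3, against 547 and 536 with mock, and fell by 0.12 on the log2 scale (limma adjusted p = 0.0371), a call that ended with the floor at counting noise (0.155) and with the replicate block (0.0585).

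Among 8 co-regulator genes 4 rose and 1 fell, beside 11.7% and 11.3% of all genes tested. The 2 largest changes belong to genes best known in DNA replication. Timeless, named for the fly clock gene and in mammals part of the complex that guards replication forks, had 393 and 379 in the Pdk3 libraries, against 130 and 125 in the mock libraries. Every Pdk3 value was about 3 times every mock value (log2 fold change 1.59 ± 0.06, limma adjusted p and floored value both 7.4e-06). Its fork partner Tipin had 66 and 61 with Pdk3, against 39 and 46 with mock (0.57, limma adjusted p = 0.0297, floored 0.0368). Sfpq and Nono, RNA-binding partners of PER complexes, rose by 0.15 and 0.092 (limma adjusted p = 0.0106 and 0.0404), and both calls ended with the floor at counting noise (0.0579 and 0.220) and with ribosomal protein gene scaling (0.210 and 0.912). The call of Nono also ended with the replicate block (0.0585). Crebbp, an acetyltransferase that assists BMAL1 and CLOCK, had 806 and 805 with Pdk3, against 896 and 909 with mock, and fell by 0.16 (limma adjusted p = 0.00414, floored 0.00677).

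Of 12 tested genes known as clock outputs in mice, 2 rose and 1 fell, and the median log2 fold change was 0.026. Wee1, a brake on entry into mitosis whose promoter answers to E-box factors in mouse liver, had 550 and 554 with Pdk3, against 371 and 380 with mock (0.55, limma adjusted p and floored value both 7.59e-05). Nampt, an enzyme of NAD salvage, had 448 and 404 with Pdk3, against 378 and 366 with mock (0.19, limma adjusted p = 0.0426), and its call ended with the floor at counting noise (0.0577) and with ribosomal protein gene scaling (0.124). Its log2 fold change was 0.12 without Pdk3 1.

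The inputs of the clock were covered by genes induced by glucocorticoids and genes of cAMP signalling, both of which act on Per1. Of 7 tested glucocorticoid-induced genes 1 rose and 4 fell, beside 11.7% and 11.3% of all genes tested. With the floor 1 rose and 2 fell, beside 16.0% of all genes in either direction. Fkbp5, a co-chaperone of the receptor, had 426 and 474 with Pdk3, against 349 and 334 with mock (0.40, limma adjusted p = 0.00293, floored 0.00296). Zbtb16, a transcription factor gene, had 111 and 114 with Pdk3, against 154 and 163 with mock (log2 fold change -0.49 ± 0.08, limma adjusted p = 0.00468, floored 0.00489). Dusp1, a phosphatase of MAP kinases, fell by 0.24 on the log2 scale, Tsc22d3 fell by 0.17 and Ddit4 fell by 0.23 (limma adjusted p = 0.0215, 0.0222 and 0.0299, floored 0.0266, 0.0960 and 0.0822), and the last 2 calls ended with the floor at counting noise. Of 7 cAMP and CREB genes 3 fell and 0 rose, with and without the floor, beside the same shares of all genes. Pde4d, which breaks down cAMP, had 356 and 371 in the Pdk3 libraries, against 463 and 437 in the mock libraries (-0.31, limma adjusted p = 0.00332, floored 0.00337). The CREB coactivator genes Crtc1 and Crtc2 fell by 0.33 and 0.22 (limma adjusted p = 0.0147 and 0.0310, floored 0.0166 and 0.0385). Creb1 itself had a log2 fold change of -0.13 and Sik1, an inhibitory kinase of the CRTC proteins, of 0.016, neither past the threshold.

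**Figure D5:**
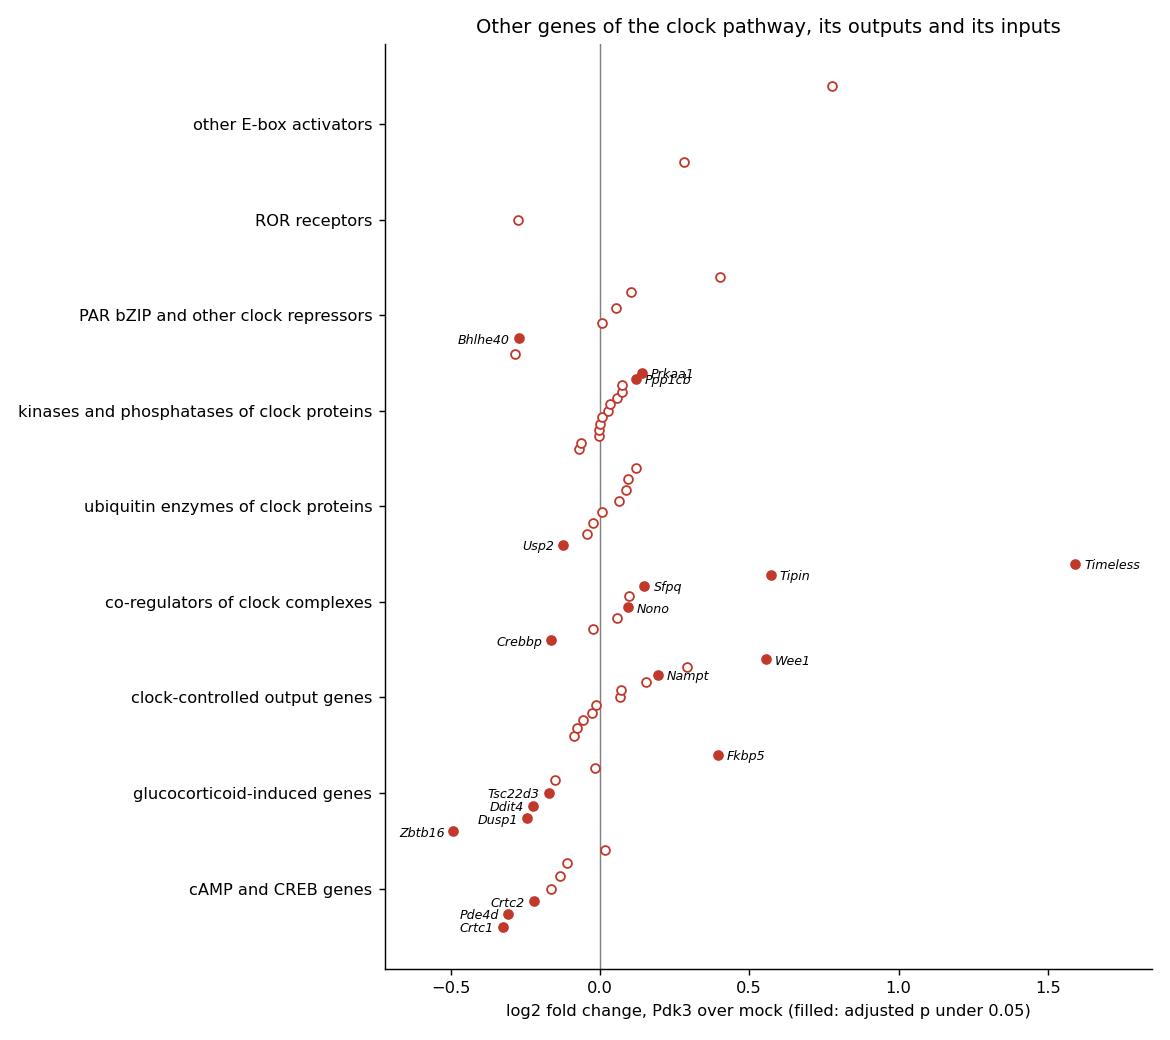
Log2 fold change, Pdk3 over mock (horizontal axis), of 63 of the 65 further genes of the clock pathway in 9 lists (rows), with a circle for each gene, filled and named where the adjusted p is under 0.05. Most circles lie near 0, Timeless stands at 1.59, and the 3 filled genes among the 7 of the cAMP list lie below 0.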

How the data were processed

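RNA-seq was made from 2 Pdk3 and 2 mock libraries. Tools listed in the submitters' processing notes are Trimmomatic 0.39 and FastQC, the aligner STAR 2.6.1d with build rn6, featureCounts 1.6.5 for counting and DESeq2 1.26.0; the list used here gives no settings. The values the authors deposited are treated here as a score, since they are counts per gene normalised between libraries and rounded, with totals that are almost equal. How duplicate reads, strand and low genes were handled is not given in the sources used here.

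After adding a pseudocount of 1 and taking log2, groups were compared by limma 3.58.1 in R 4.3.3 (intensity trend, group as the single term, 2 residual and 5.56 prior degrees of freedom), two-sided, Benjamini-Hochberg over 12838 genes. Fold changes on this scale understate low genes. Counting intervals and the binomial p behind the floor treat values as reads and cover counting error only. Limma's intervals rest on its estimate of the spread between libraries. The fit was also run on simulated reads with counting noise only. Their spread differs from that of these libraries, so that run does not test the calls reported here.

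The clock members and gene lists were chosen with earlier results of these data known. Of each list, genes past the threshold (up to 4 in the majority direction, 2 in the other, by smallest p) or else the 2 of highest mean are named, and further list genes were added after their values were seen. Values of some list genes are not reported here. A further 5 list genes and 4 markers were not analysed here. Alternatives tried were TMM scaling, ribosomal protein gene scaling, the replicate number as a block, leaving out single libraries, no filter, a minimum of 50, pseudocounts of 0.5 and 8, no intensity trend, a minimum change of 1 and the floor. Promoter windows are from RefSeq (GRCr8).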

Additional observations from a re-analysis of the deposited data

How the results depend on the processing

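Arntl kept its call under 7 of 13 alternatives and Per3 under 5. A minimum change of 1 is not counted among the 13, and it ended both calls. Both genes kept their sign in all 13, but most of these could not turn it. The replicate block, the filters, the trend setting and the floor left the estimate unchanged. Pseudocounts and leaving out 1 library cannot turn a sign where the groups do not overlap. Members called lower, 2 as reported, numbered 1 with the replicate block, 1 floored at counting noise, 6 with ribosomal protein gene scaling, 4 with a minimum of 50, and 0 without a filter, without an intensity trend and with a minimum change of 1. Members called higher, 0 as reported, numbered 1 with TMM. With any 1 library left out limma called 0 members and 0 genes, while 1554 to 1645 genes above and 1349 to 1727 below mock had an unadjusted p under 0.05 (2 to 3 members below). Over all genes, 1496 higher and 1449 lower as reported, the counts were 941 and 3613 with ribosomal protein gene scaling, 558 and 418 without a filter, 526 and 325 without an intensity trend, and 157 and 51 with a minimum change of 1. The causes were not tested. Signs turned for Clock (0.0081 without Pdk3 replicate 1 and 0.014 without Mock replicate 1, within a range of -0.021 to 0.014 when single libraries were left out, and 0.0071 with TMM), Dbp (-0.048 without Pdk3 replicate 1, within a range of -0.048 to 0.094, and -0.063 with ribosomal protein gene scaling), Per2 (-0.033) and Cry1 (-0.021), the last pair also with ribosomal protein gene scaling, and none of these values passed. Same-numbered libraries hardly deviated together (correlation across genes 0.038) and share only a number in the labels. Among 24 pathway genes chosen by the naming rule, Npas2, Arntl2 and Rora had no call to lose. Of the others, 13 calls ended without a filter, 18 without an intensity trend and 7 at the floor. Bhlhe40, Fkbp5, Pde4d and Crtc1 were among those whose calls ended both without a filter and without a trend. Timeless, Wee1 and Zbtb16 kept their calls under both. Library depth is not known from normalised values. With these values treated as reads, limma's intervals rest on a spread below counting noise. Counting intervals of the fold include 1 where limma's intervals exclude a log2 change of 0 for Per1 (0.981 to 1.16) and Nr1d2 (0.859 to 1.005).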

Other observations

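Genes with a clock motif near their start can be described across the whole table. Of 9883 tested genes with a RefSeq promoter window, 12.2% rose and 11.6% fell. Of 964 with an E-box 11.9% rose and 12.0% fell, and of 578 with the variant E-box 13.7% rose and 10.7% fell. Of 132 genes with a ROR element, Arntl among them, 13.6% rose and 18.2% fell, and their median log2 fold change was -0.0077. Of 49 genes with a D-box 7 rose and 3 fell. Of 315 genes with a CRE 38 rose and 18 fell. These are counts without a test.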
